A study of Mus musculus with 12 samples.

Results

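Splenic regulatory T cells (Treg cells) of the mouse were compared after 3 days of culture with the soluble ligands OX40L and JAG1 and in the fresh, uncultured state. The comparison rests on 4 of the 12 arrays of the series, 2 labelled OX40L-JAG1 Treg and 2 labelled Control Treg, and takes in 22180 genes. Members were chosen by the sample labels alone, and each gene's change is the difference between the 2 group means. All 12 samples came from total splenic CD4+ cells of mice aged 8 weeks that carry Foxp3.eGFP, a reporter in which green fluorescent protein marks Foxp3-expressing cells, on the C57BL/6 background. Control Treg cells were untreated. OX40L-JAG1 Treg cells received soluble OX40L at 5 µg/ml and JAG1 at 1 µg/ml. The remaining groups were untreated effector cells (Foxp3-, Control Teff), Teff cells given the same ligands, and Treg and Teff cells treated over the same 3 days with antibodies to CD3 and CD28 at 2 µg/ml each, all with 2 arrays. Treg cells cultured without ligand or antibody were not analysed here, so culture and ligands change together in the comparison and cannot be told apart. Per the labels, the treated CD4+ population held Treg and Teff cells together. Nothing in the labels states that replicates came from different animals or cultures. The p-values therefore reflect the spread among these arrays alone, part of which may be technical, and the number of arrays limits the precision.

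Treg cells restrain immune responses and depend on the transcription factor Foxp3. OX40, encoded by Tnfrsf4, is a costimulatory receptor of the TNF receptor superfamily that recruits TRAF adaptors and activates both the classical and the alternative NF-kappaB pathway, the latter through processing of the Nfkb2 product p100. JAG1 is a ligand of the Notch receptors, which are cut on ligand binding by an ADAM protease and then by gamma-secretase, so that the released intracellular part activates target genes such as Hes1 and Dtx1 in the nucleus. Anti-CD3 and anti-CD28 antibodies instead act through the T cell receptor and the costimulatory receptor CD28. The study set expansion of Treg cells with and without engagement of the T cell receptor side by side.

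Motifs known from these pathways were looked for in the 250 bases before the start of the listed genes. The windows of 4 called genes that held a match are shown, as read from RefSeq, build GRCm38.p6, 5′ to 3′ on the strand of the gene. Capitals mark the motif found in each window. Hspa1a (chr17:34972157-34972406, minus strand) and Hspa1b (chr17:34959239-34959488, minus strand) encode the inducible heat shock protein HSP70. Hmgcs1 (chr13:119690101-119690350, plus strand) encodes an early enzyme of cholesterol synthesis. Nfkb2 (chr19:46304487-46304736, plus strand, the first of its listed starts) encodes p100.
Hspa1a: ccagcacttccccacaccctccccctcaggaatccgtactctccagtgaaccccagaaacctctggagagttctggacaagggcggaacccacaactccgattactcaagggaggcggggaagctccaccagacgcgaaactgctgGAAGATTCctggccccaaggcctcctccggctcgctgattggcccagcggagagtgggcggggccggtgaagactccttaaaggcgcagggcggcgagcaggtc
Hspa1b: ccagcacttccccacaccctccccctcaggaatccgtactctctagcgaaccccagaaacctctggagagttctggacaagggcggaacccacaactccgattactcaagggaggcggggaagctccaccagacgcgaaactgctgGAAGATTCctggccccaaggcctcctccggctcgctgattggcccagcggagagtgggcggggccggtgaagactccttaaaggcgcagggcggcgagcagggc
Hmgcs1: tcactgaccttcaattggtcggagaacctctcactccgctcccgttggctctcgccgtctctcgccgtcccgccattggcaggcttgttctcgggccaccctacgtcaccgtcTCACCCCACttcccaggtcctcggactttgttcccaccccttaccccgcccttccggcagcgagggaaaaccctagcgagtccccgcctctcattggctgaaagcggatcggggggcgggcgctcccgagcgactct
Nfkb2: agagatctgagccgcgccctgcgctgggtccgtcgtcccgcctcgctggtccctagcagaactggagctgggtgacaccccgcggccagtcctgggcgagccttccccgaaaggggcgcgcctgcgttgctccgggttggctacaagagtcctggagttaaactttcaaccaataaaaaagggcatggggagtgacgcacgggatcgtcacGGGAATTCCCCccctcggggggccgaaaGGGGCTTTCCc
The motif in the Hspa1a and Hspa1b windows is GAANNTTC, a core of the heat shock element, which starts at -104 from the gene start in both. Their windows differ at 3 of 250 bases (98.8% identity), and the array values of these near-identical copies are uncertain as to which of them gave the signal. The motif in Hmgcs1 is TCACNCCAC, a sterol regulatory element, which starts at -137. Nfkb2 held overlapping and separate matches to the NF-kappaB site, at -39, -38 and -11. On either strand, GAANNTTC occurred in 6.69% of all 32851 promoter windows of this length, TCACNCCAC in 1.05% and the NF-kappaB site in 7.25%. Counted by gene, with a gene of several windows counted once, the shares were 7.73%, 1.22% and 8.23%. GAANNTTC was present in 5 of the 24 heat shock and chaperone genes with a window, the sterol element in 1 of 16 cholesterol genes (Hmgcs1) and 0 of 11 fatty acid genes, and the NF-kappaB site in 8 of 21 NF-kappaB and TRAF genes. The CArG box, a serum response element, was in 3 of 23 immediate early genes (1.62% of all genes) and in 0 of the 6 called ones. The windows of the called genes Cyp51, Dnajb1 and Fos held no match to the motif searched in their list. Bases further from the start were not searched, so a missing match does not show that a gene lacks the motif. A match of letters is a description of the window and not a site of binding.

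Values are log2 intensities, and in each pair of values the array of the replicate labelled B comes first. Foxp3, the gene that defines the cells, read 10.36 and 10.37 in control Treg and 10.92 and 10.64 in OX40L-JAG1 Treg. It stood at 5.66 in both control Teff arrays. The Treg genes Il2ra (11.24 and 11.19, then 11.78 and 11.56) and Ikzf2 (10.76 and 10.43, then 11.49 and 10.95) and the T cell genes Cd3e (11.26 and 11.62, then 11.58 and 11.44) and Cd4 (10.31 and 10.61, then 10.92 and 10.82) were likewise high in all 4 arrays. The replicates of the Treg groups used here correlated at 0.988 across genes. Those of the OX40L-JAG1 Teff group stood apart at 0.881, against 0.984 to 0.994 in the other 5 groups. Log2 values also varied less over genes on these 2 arrays (standard deviation 1.49 and 1.71, against 1.95 to 2.19 on the others). All 12 arrays share the spread in the fit, so counts are also given from a fit that leaves out the OX40L-JAG1 Teff arrays, called the 10-array fit below.

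With limma and Benjamini-Hochberg adjustment at 0.05 over all genes, 221 genes rose (0.996% of those tested) and 124 fell (0.559%) in OX40L-JAG1 Treg, 345 (1.56%) in all. Of these calls 64.1% were rises, against 57.8% after quantile normalization and 52.2% with all rows of the table tested. In the 10-array fit there were 755 rises (3.4%) and 445 falls (2.01%), and all 345 genes were among those 1200 (5.41%). The counts of list members called below are to be read against the shares of all genes called in the same fit. The median change of all genes was -0.01. For 5138 genes (23.2%) both OX40L-JAG1 arrays lay above both control arrays, and for 5001 (22.5%) both lay below. Of the 340 genes named by rule, 114 passed. None of these turned direction under any setting tried, and 37 passed under every one. For all 114 the groups did not overlap, so leaving out 1 of their arrays could not turn the direction. Arrays of other groups do not enter the change at all. With any 1 array left out, the change of 113 of the 114 stayed within 1.5 times its size. The exception was Tsc22d3, the glucocorticoid-induced leucine zipper gene, whose change of -1.14 lay between -1.55 and -0.73. In the text below, genes called stable are among those 37. The other calls among the 114 were lost in at least 1 of the alternative fits, for most of them a fit with 1 array left out. A further fit left out dim genes, and a gene absent from it was judged on the others. Calls outside the 114, between the cultures and in the interaction were not followed gene by gene across all of these fits. Genes named with an adjusted p are from this limma fit.

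**Figure D1:**
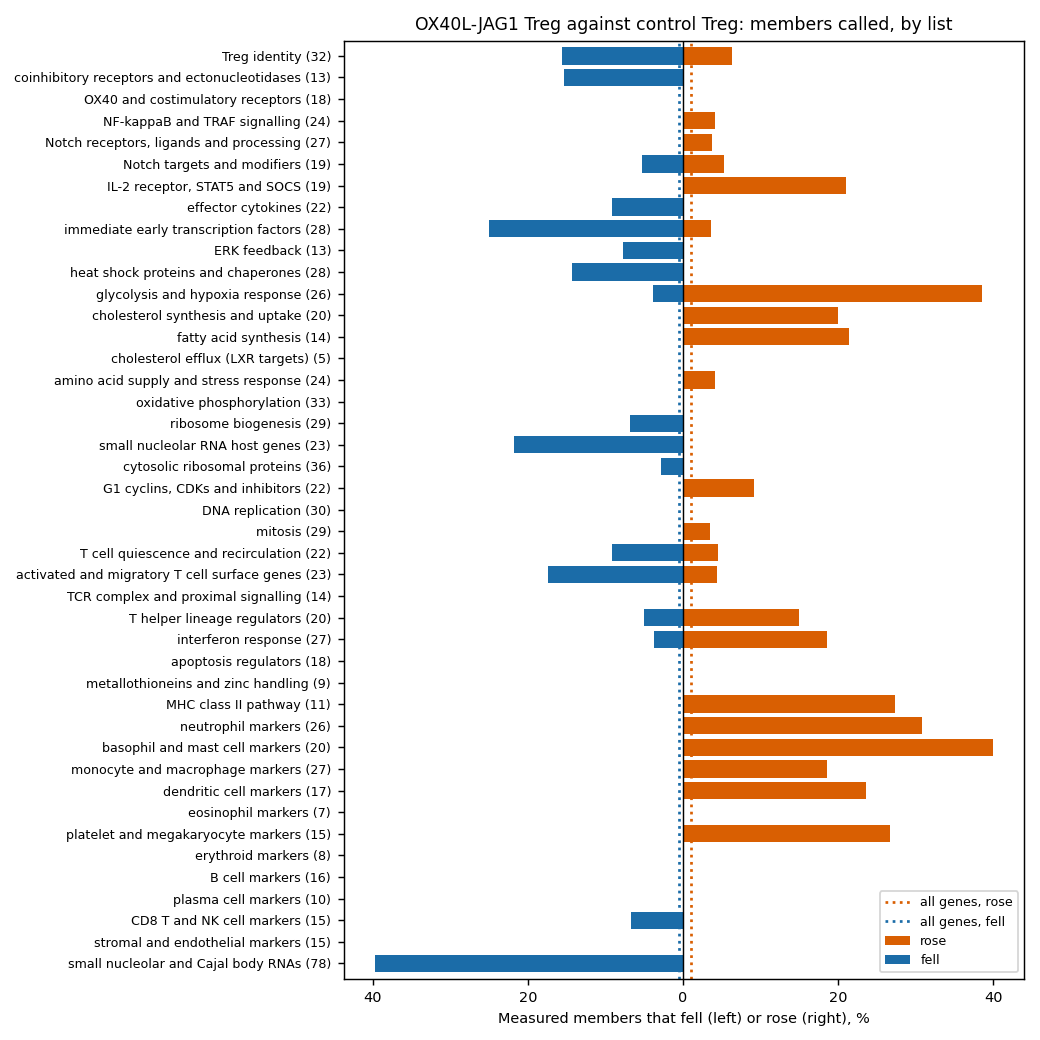
Percentage of the measured members of each gene list that fell (left, blue) or rose (right, orange) in OX40L-JAG1 Treg against control Treg, with the number measured in brackets and dotted lines for all genes (0.559% and 0.996%). Glycolysis and hypoxia genes (10 of 26 rose) and markers of basophils (8 of 20) and neutrophils (8 of 26) reach far to the right, and small nucleolar RNAs (31 of 78 fell) and immediate early genes (7 of 28 fell) far to the left.

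The receptors that the ligands bind did not pass the test. Tnfrsf4, which encodes OX40, read 10.28 and 10.32 in control Treg and 10.54 and 10.57 in OX40L-JAG1 Treg, a difference of 0.25 ± 0.25 (SE, adjusted p = 0.885). Both cultured arrays lay above both control arrays, but the difference was no larger than its error. None of the 18 measured OX40 and costimulatory receptor genes passed in either direction in limma (0 rose and 2 fell at an unadjusted p under 0.05), and their median change was 0.00. In the 10-array fit 2 of them fell, Tnfrsf8 (CD30, -0.84, adjusted p = 0.00523) and Cd40lg (CD40 ligand, -0.80, 0.00995). The share of all genes that fell in that fit was 2.01%. Tnfrsf9, which encodes the costimulatory receptor 4-1BB, read 9.79 and 9.78, then 10.17 and 9.86.

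Downstream of these receptors, Nfkb2 was the NF-kappaB gene that rose. It read 7.66 and 7.68 in control Treg and 9.10 and 8.96 in OX40L-JAG1 Treg. The groups were well apart, and the difference was 1.36 ± 0.17 (2.57-fold, adjusted p = 0.00231), a stable call. In anti-CD3-CD28 Treg the same gene read 7.97 and 8.11. The ligand culture gave the higher level of the 2 cultures (anti-CD3-CD28 minus OX40L-JAG1: -1.0 ± 0.17, adjusted p = 0.00459). Nfkb2 was the only one called of 24 measured NF-kappaB and TRAF genes, whose median change was 0.34. The signalling adaptor Traf1 read 8.39 and 8.42, then 9.45 and 9.36 (0.99 ± 0.23, adjusted p = 0.059). The inhibitor Nfkbia read 10.13 and 9.85, then 10.81 and 10.57 (0.70 ± 0.22, adjusted p = 0.212). In the 10-array fit 4 of the 24 rose, Nfkb2, Traf1, Nfkbia and Birc2 (0.66), and 1 fell, the nuclear inhibitor Nfkbid (-0.86). The shares of all genes in that fit were 3.4% and 2.01%. Relb, the partner of the processed Nfkb2 product, had a change of 0.43 ± 0.21 (adjusted p = 0.521).

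Among the 27 Notch receptors, ligands and processing genes, 1 rose. Aph1a, a subunit of gamma-secretase, read 7.66 and 7.67 in control Treg and 8.69 and 8.36 in OX40L-JAG1 Treg (0.86 ± 0.18, adjusted p = 0.0412), and was not called after quantile normalization. Its other, dimmer row differed by 0.35. Notch1 read 8.41 and 8.22, then 8.34 and 8.04 (-0.13 ± 0.19, adjusted p = 0.947). Notch2 read 7.97 and 7.86, then 8.52 and 8.11 (0.40 ± 0.20, 0.576). Notch3, near the level of the array medians, read 4.91 and 5.26, then 5.50 and 4.47 (-0.10 ± 0.38, 0.988). The 2 arrays of OX40L-JAG1 Treg lay on either side of the controls for Notch3, so no direction can be given.

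The Notch targets and modifiers moved in both directions, with 1 rise and 1 fall among 19 and a median of -0.01. Dtx1, a Deltex gene that is both a target and a modifier of Notch signalling, stood at 8.82 in both control arrays and at 6.75 and 6.68 in OX40L-JAG1 Treg. This fall (-2.11 ± 0.20, 4.31-fold, adjusted p = 0.000461) was stable, and the gene's other row on the array fell alike (-1.86). Anti-CD3-CD28 Treg read 6.30 in both arrays for Dtx1, and the cultures did not pass in the test of their difference (-0.41 ± 0.20, adjusted p = 0.36). Bhlhe40, a transcriptional repressor induced on T cell activation, read 7.79 and 8.33, then 10.11 and 9.93 (1.96 ± 0.22, adjusted p = 0.00131), also stable. The classical targets Hes1 (4.94 and 4.90, then 4.61 and 4.59) and Nrarp (5.10 and 4.81, then 4.36 and 4.79) were dim in all 4 arrays and did not pass (adjusted p = 0.671 and 0.713). Myc, which is also on the immediate early and G1 lists, had a change of -0.86 ± 0.21 (adjusted p = 0.0914, and 0.0127 in the 10-array fit).

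Genes of the IL-2 receptor and STAT5 axis, through which common gamma chain cytokines sustain Treg cells, rose in 4 of 19 and none fell. Of all genes 0.996% rose, and the list median was 0.42. Il7r, the receptor chain for interleukin 7, read 10.05 and 10.46 in control Treg and 11.84 and 11.61 in OX40L-JAG1 Treg (1.47 ± 0.19, adjusted p = 0.00299). Pim1, a survival kinase, read 8.91 and 9.0, then 10.26 and 10.25 (1.30 ± 0.19, 0.00461), while its other, dimmer row differed by 0.21. The feedback inhibitors Socs2 (6.56 and 6.91, then 8.09 and 9.03) and Socs1 (6.43 and 6.74, then 7.65 and 8.03) rose by 1.83 ± 0.34 and 1.25 ± 0.27 (adjusted p = 0.0208 and 0.0436). For these 4 genes both cultured arrays lay above both controls, as they did for 23.2% of all genes. None of the 4 calls was stable, and Socs2 was not called after quantile normalization. Cish, another STAT5 target, read 8.11 and 8.42, then 8.57 and 8.60 (0.32 ± 0.19, adjusted p = 0.685). Il2 itself was dim throughout (3.03 and 2.56, then 3.15 and 3.29; adjusted p = 0.588).

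Treg identity genes did not move as a block. Of 32 measured, 2 rose and 5 fell (against 0.996% and 0.559% of all genes). The median was 0.23, above 0 although more members fell than rose. Itgae, the integrin chain CD103 that binds E-cadherin on epithelium, read 7.37 and 7.55 in control Treg and 9.49 and 9.28 in OX40L-JAG1 Treg. The rise of 1.92 ± 0.18 (3.79-fold, adjusted p = 0.000461) was stable, and anti-CD3-CD28 Treg lay well below the ligand culture (7.84 and 7.93, difference -1.50 ± 0.18, adjusted p = 0.00048). Il10, which encodes an anti-inflammatory cytokine, read 6.19 and 6.17, then 4.19 and 3.54, a stable fall (-2.31 ± 0.25, adjusted p = 0.00104). Anti-CD3-CD28 Treg read 7.51 and 7.42 for Il10, on the other side of the control cells. The ligand-cultured mean lies below 4.87, the lowest array median over genes, so its level there is poorly resolved. Klrg1, an inhibitory receptor of terminally differentiated cells, read 8.41 and 8.94, then 6.63 and 7.32. Ccr8, the chemokine receptor of effector Treg cells, read 8.40 and 8.42, then 6.93 and 6.88. Cd83 (9.02 and 8.96, then 7.48 and 7.62) and Izumo1r, which encodes folate receptor 4 (9.98 and 10.23, then 8.76 in both), were also lower in both cultured arrays. These 4 genes fell (-1.70 ± 0.27, -1.51 ± 0.19, -1.44 ± 0.23 and -1.34 ± 0.27, adjusted p = 0.00757, 0.00225, 0.00974 and 0.0319), and of them Ccr8 was stable. Ctla4 (9.47 and 9.57, then 9.63 and 9.61) showed no detectable change (adjusted p = 0.975).

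Coinhibitory receptors and ectonucleotidases were lower in both cultured arrays for 10 of 13 genes, against 22.5% of all genes. Of the 13, 2 passed, both lower, against 0.559% of all genes. Lag3 read 7.40 and 7.07 in control Treg and 5.82 and 5.78 in OX40L-JAG1 Treg (-1.44 ± 0.19, adjusted p = 0.00322). Tigit read 7.97 and 8.58, then 6.77 and 7.03 (-1.38 ± 0.29, 0.0425) and was not called after quantile normalization. In the 10-array fit 5 of the 13 fell (against 2.01% of all genes), among them Nt5e, the ectonucleotidase CD73 (-1.01), and Pdcd1 (PD-1, -0.73). The same direction held for surface genes of activated and migratory T cells, of which 4 of 23 fell (Klrg1, Ccr8, Cxcr5 and Ccr4) and 1 rose (Itgae). Ccr4, a receptor that guides cells to skin and inflamed tissue, read 7.16 and 7.36, then 6.10 and 5.67 (-1.37 ± 0.25, adjusted p = 0.0198). Cxcr5, the receptor that guides cells to B cell follicles, read 8.01 and 8.62, then 7.0 and 6.83 (-1.40 ± 0.27, 0.0269).

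**Figure D2:**
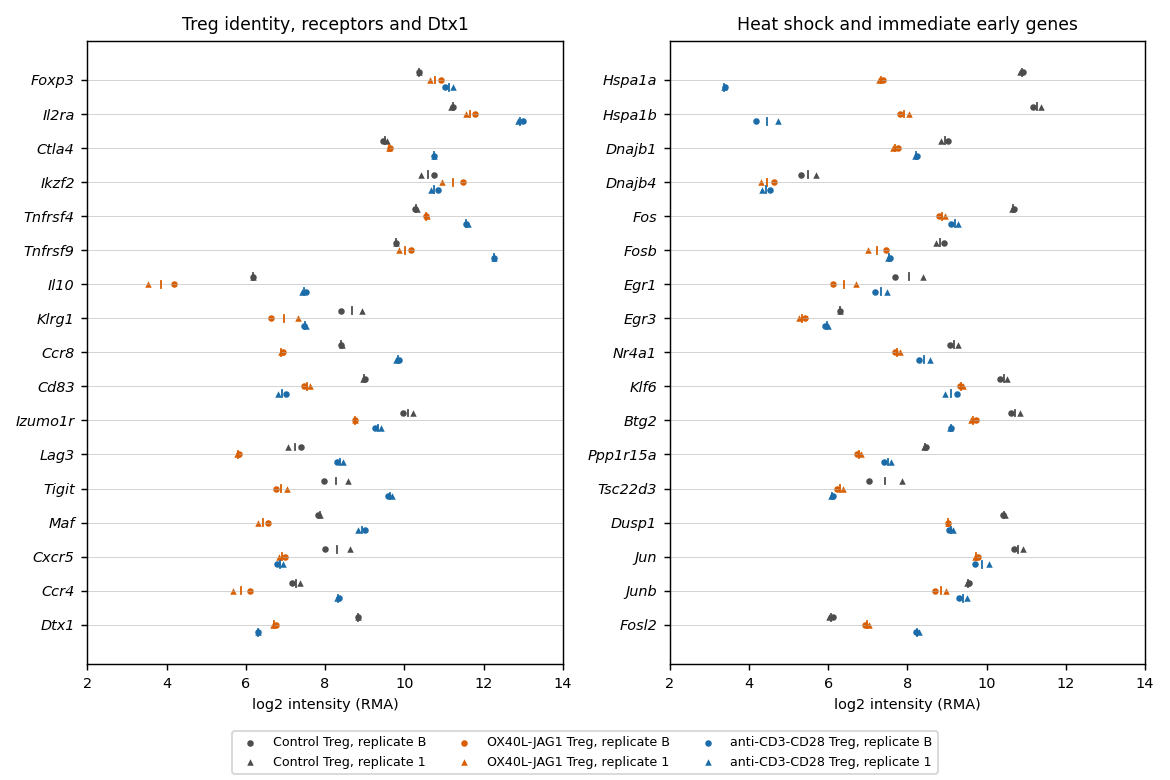
Log2 intensity of Treg identity and receptor genes and Dtx1 (left) and of heat shock and immediate early genes (right) on each Treg array, by treatment, with vertical bars for group means (Jun and Junb were added after their values were seen). Il10, Ccr8, Lag3, Tigit, Maf and Ccr4 lie below control after OX40L-JAG1 and above it after anti-CD3-CD28, while Dtx1, Hspa1a and Hspa1b lie below control in both cultures.

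Of 20 T helper lineage regulators, 3 rose and 1 fell (median 0.17), against 0.996% and 0.559% of all genes. Ifngr1, a chain of the interferon gamma receptor, read 9.83 and 10.04 in control Treg and 12.02 and 11.75 in OX40L-JAG1 Treg, a stable rise of 1.95 ± 0.19 (adjusted p = 0.000597). Il12rb2, the signalling chain of the interleukin 12 receptor, read 3.82 and 4.80, then 6.52 and 6.22 (2.06 ± 0.28, 0.00346). Runx3, a transcription factor of cytotoxic and T helper 1 cells, read 5.08 and 5.44, then 6.49 and 6.69 (1.33 ± 0.25, 0.0229). Maf, a transcription factor that drives Il10 among other genes, read 7.83 and 7.88, then 6.57 and 6.30 (-1.42 ± 0.18, 0.00231), although its other, dimmer row changed by -0.17. Tbx21, the T helper 1 master regulator, did not pass (-0.85, adjusted p = 0.0931). Among 22 effector cytokines the calls were Il10 and Tnfsf11, which encodes RANK ligand (6.60 and 6.87, then 5.69 and 5.08; -1.35 ± 0.29, adjusted p = 0.0466, not called after quantile normalization), both lower.

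Immediate early transcription factors, which rise within a short time of receptor signalling or tissue handling, were lower after culture. Of 28, 7 fell and 1 rose (against 0.559% and 0.996% of all genes). For 21 both cultured arrays lay below both control arrays (against 22.5% of all genes). The list median was -0.61. Fos read 10.68 and 10.63 in control Treg and 8.79 and 8.94 in OX40L-JAG1 Treg (-1.79 ± 0.24, adjusted p = 0.00289). Its relative Fosb read 8.93 and 8.73, then 7.45 and 7.0 (-1.61 ± 0.22, 0.0034). Nr4a1, which encodes the orphan nuclear receptor Nur77 and tracks T cell receptor signalling, read 9.07 and 9.28, then 7.69 and 7.80 (-1.43 ± 0.20, 0.00401). The zinc finger factors Egr1 (7.68 and 8.38, then 6.13 and 6.69) and Egr3 (6.30 in both, then 5.42 and 5.26) fell (-1.62 ± 0.27 and -0.96 ± 0.21, adjusted p = 0.0108 and 0.0465), as did Btg2 (-1.05 ± 0.22, 0.0387) and Klf6 (-1.07 ± 0.23, 0.048). Fosl2 read 6.11 and 6.03, then 6.92 and 7.03, and was the exception (0.90 ± 0.17, adjusted p = 0.0224). Egr3 and Fosl2 were not called after quantile normalization. A total of 12 fell in the 10-array fit, in which 2.01% of all genes fell. Of 13 genes on the ERK feedback list 1 fell, the stress phosphatase subunit Ppp1r15a. It read 8.48 and 8.41, then 6.72 and 6.82 (-1.68 ± 0.23, adjusted p = 0.00401). None of the Dusp and Sprouty genes on the list passed. The phosphatase gene Dusp1 (10.41 and 10.47, then 9.02 in both) differed by -1.42 ± 0.36 (0.0935), and its adjusted p was 0.000129 in the 10-array fit.

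Heat shock genes gave the largest falls of the comparison. Hspa1a read 10.91 and 10.85 in control Treg and 7.38 and 7.29 in OX40L-JAG1 Treg, an 11.7-fold and stable difference (-3.54 ± 0.23, adjusted p = 4.59e-05). Hspa1b read 11.16 and 11.37, then 7.80 and 8.04 (-3.34 ± 0.38, 0.00131), with the limit on telling the copies apart given above. Anti-CD3-CD28 Treg lay lower still, at 3.39 and 3.37 for Hspa1a (anti-CD3-CD28 minus OX40L-JAG1: -3.95 ± 0.23, adjusted p = 6.86e-06). The co-chaperone genes Dnajb1 (9.02 and 8.85, then 7.75 and 7.63) and Dnajb4 (5.31 and 5.70, then 4.62 and 4.31) fell (-1.25 ± 0.24 and -1.04 ± 0.21, adjusted p = 0.0272 and 0.0356), Dnajb4 not after quantile normalization. In all, 4 of 28 heat shock and chaperone genes fell and none rose (0.559% and 0.996% of all genes), with a median of -0.33. GAANNTTC, the motif shown above for Hspa1a and Hspa1b, was in the window of 2 of these 4. Constitutive Hspa8 had a change of 0.48 (adjusted p = 0.3).

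Glycolysis and hypoxia genes were the metabolic list with the most calls. Of 26 measured, 10 rose and 1 fell (against 0.996% and 0.559% of all genes), and the median was 0.92. For 22 both cultured arrays lay above both controls (against 23.2% of all genes). Tpi1, a glycolytic isomerase, read 8.13 and 8.24 in control Treg and 9.98 and 9.66 in OX40L-JAG1 Treg (1.64 ± 0.23, adjusted p = 0.00405). Vegfa, the vascular growth factor and a hypoxia target, read 5.19 and 4.92, then 6.83 and 6.77 (1.75 ± 0.24, 0.00405). Hif1a, the hypoxia-inducible transcription factor, read 9.16 and 9.25, then 10.74 and 10.45 (1.39 ± 0.24, 0.0137), and its other row agreed in size (1.30). The remaining rises were of the aldolase Aldoc (1.35), the mitophagy receptor Bnip3 (1.29), the kinase Pgk1 (1.20), the glucose transporter Slc2a1 (1.14), the lactate exporter Slc16a3 (0.99), Pfkl (0.98) and pyruvate kinase Pkm (0.92), with adjusted p between 0.00722 and 0.0376. Slc16a3, Pfkl and Pkm were named after their values were seen. The other row of Slc2a1 differed by 0.03. Slc16a1, a lactate transporter of the same family as Slc16a3, moved the other way (7.43 and 7.59, then 6.69 and 6.17; -1.08 ± 0.21, adjusted p = 0.0269). In every one of the 10 rising genes the anti-CD3-CD28 Treg arrays were higher than the OX40L-JAG1 Treg arrays, and 20 of the 26 were higher with anti-CD3-CD28 in the test between the cultures (against 4.73% of all genes). The number that rose in OX40L-JAG1 Treg was 16 in the 10-array fit, in which 3.4% of all genes rose.

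Genes of lipid synthesis rose as well, and none fell. Of 20 cholesterol synthesis and uptake genes 4 rose (median 0.61), against 0.996% of all genes. Hmgcs1, whose promoter window is shown above, read 7.0 and 7.29 in control Treg and 9.42 and 8.92 in OX40L-JAG1 Treg (2.03 ± 0.29, adjusted p = 0.00413). Cyp51 (6.49 and 6.66, then 8.36 and 8.33; 1.77 ± 0.34), Fdps (6.96 and 7.19, then 8.26 and 8.46; 1.29 ± 0.27) and Msmo1 (6.46 and 6.24, then 7.67 and 7.48; 1.23 ± 0.25) belong to the same pathway and had adjusted p of 0.0246, 0.0446 and 0.0338. Of the 20, 9 rose in the 10-array fit, in which 3.4% of all genes rose. Among 14 fatty acid synthesis genes 3 rose, all of them desaturases, against 0.996% of all genes. Fads2 read 4.61 and 4.28, then 7.33 and 7.17 (2.81 ± 0.38, adjusted p = 0.00351) and was not called after quantile normalization. Scd1 read 3.09 and 4.0, then 5.53 and 5.69 (2.07 ± 0.31, 0.00657), and Fads1 read 5.59 and 5.92, then 7.17 and 7.18 (1.42 ± 0.19, 0.0034). The control values of Fads2 and Scd1 lay below the lowest array median of 4.87, so the size of their rise is poorly resolved. None of the 5 measured cholesterol efflux genes passed in limma (2 rose and 0 fell at an unadjusted p under 0.05).

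Other metabolic lists had few calls. No gene of 33 oxidative phosphorylation genes passed, with all 12 arrays, in the 10-array fit or at an unadjusted p under 0.05 in limma, and their changes ran from -0.55 to 0.26. Of 24 genes of amino acid supply and stress 1 rose, the cystine transporter Slc7a11 (2.61 and 2.76, then 3.47 and 4.0), whose values lay below the lowest array median throughout and whose other row differed by -0.27.

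**Figure D3:**
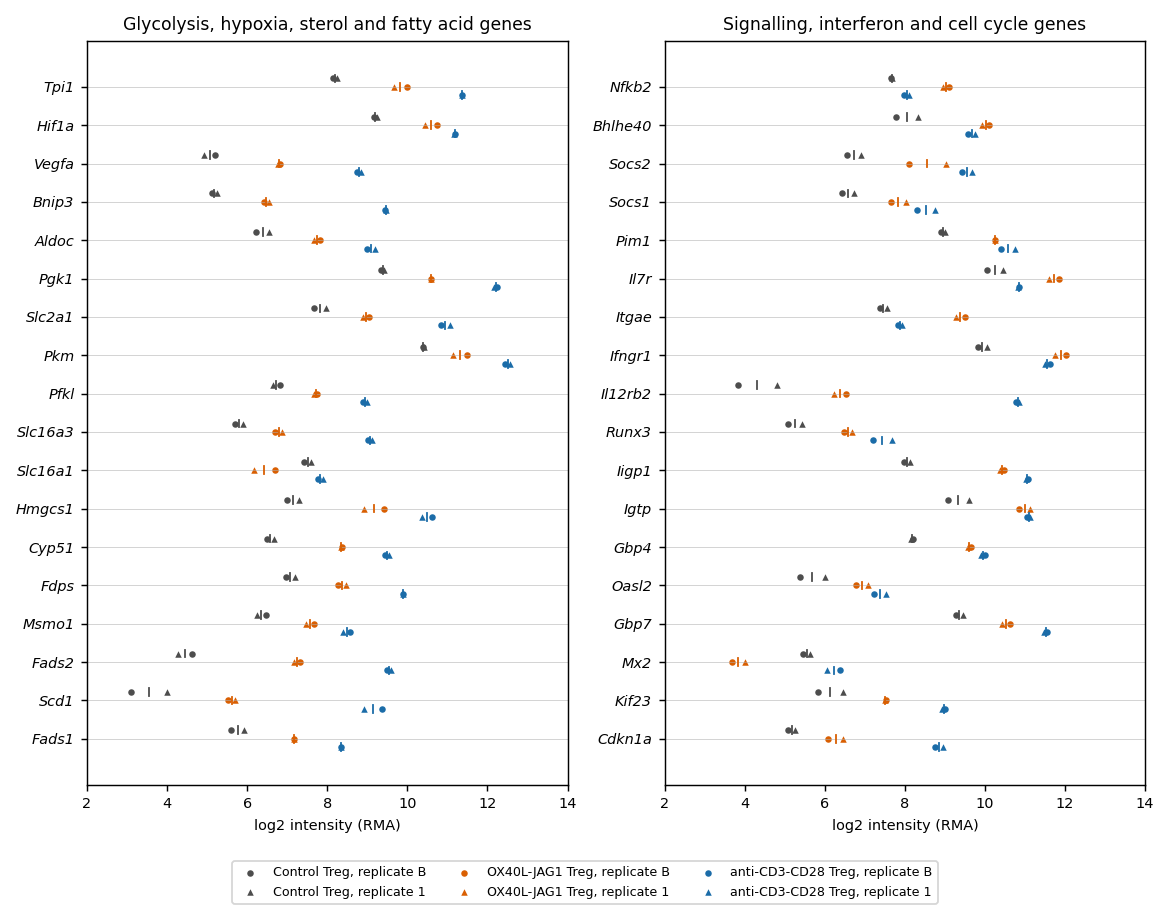
Log2 intensity of glycolysis, hypoxia, sterol and fatty acid genes (left) and of signalling, interferon and cell cycle genes (right) on each Treg array, by treatment, with vertical bars for group means. For most metabolic genes OX40L-JAG1 Treg lies between control and anti-CD3-CD28 Treg, as for Bnip3 (mean 5.18, 6.47 and 9.46), while Nfkb2, Il7r and Itgae are highest in OX40L-JAG1 Treg and Slc16a1 and Mx2 lowest there.

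Few cell cycle genes passed. Of 30 DNA replication genes none passed in limma (1 rose and 3 fell at an unadjusted p under 0.05), with a median of -0.20. Of 29 mitosis genes 1 rose, Kif23, a kinesin of cytokinesis (5.82 and 6.45 in control Treg, 7.53 and 7.50 in OX40L-JAG1 Treg; 1.38 ± 0.22, adjusted p = 0.00789). The median of the mitosis list was 0.58, and 12 rose in the 10-array fit (against 3.4% of all genes). Both cultured arrays lay above both controls for 25 of the 29 (against 23.2% of all genes). Mki67, the proliferation marker, read 8.75 and 8.86, then 9.46 and 9.41 (0.63 ± 0.39, adjusted p = 0.715, and 0.0236 in the 10-array fit). The CDK inhibitors Cdkn1a (5.09 and 5.25, then 6.09 and 6.45) and Cdkn2c (5.50 and 6.02, then 6.82 and 6.83) rose by 1.10 ± 0.22 and 1.06 ± 0.21 (adjusted p = 0.0352 and 0.0291) among 22 G1 genes, neither after quantile normalization. Against anti-CD3-CD28 Treg the gap was wide. In that culture 25 of the 30 replication genes and 26 of the 29 mitosis genes were higher than in OX40L-JAG1 Treg, against 4.73% of all genes, by a median of 1.47 and 1.85.

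Genes of T cell quiescence and recirculation had 1 rise (Il7r) and 2 falls (Btg2 and Tsc22d3) among 22. None of 14 genes of the T cell receptor complex and its proximal signalling passed in limma, with none at an unadjusted p under 0.05 either, and their changes ran from -0.45 to 0.41. None of 18 apoptosis regulators passed (3 rose and 3 fell at an unadjusted p under 0.05), nor did any of 9 metallothionein and zinc genes (3 rose and 0 fell). In the 10-array fit the metallothionein genes Mt1 (1.16) and Mt2 (0.99), which bind zinc, and the zinc transporter Slc30a4 (0.61) rose, as did the death receptor Fas (0.96) and the pro-apoptotic Bcl2l11 (0.76), while Bcl2 (-0.75) and Fasl (-0.81) fell.

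Interferon response genes rose in 5 of 27 and fell in 1 (median 0.41), against 0.996% and 0.559% of all genes. Iigp1, an immunity-related GTPase, read 7.97 and 8.13 in control Treg and 10.48 and 10.38 in OX40L-JAG1 Treg, a stable rise of 2.38 ± 0.24 (adjusted p = 0.00072). Igtp, of the same family, read 9.07 and 9.60, then 10.86 and 11.12 (1.66 ± 0.24, 0.00552). The guanylate-binding protein genes Gbp4 (8.20 and 8.15, then 9.64 and 9.58; 1.43 ± 0.22) and Gbp7 (9.27 and 9.46, then 10.62 and 10.42; 1.16 ± 0.24) and Oasl2 (1.24 ± 0.25) had adjusted p of 0.00645, 0.0417 and 0.0319, and neither Gbp4 nor Oasl2 was called after quantile normalization. Mx2, an antiviral GTPase, moved the other way (5.45 and 5.64, then 3.67 and 4.01; -1.71 ± 0.26, adjusted p = 0.00628). There were 10 rises and 1 fall in the 10-array fit, against 3.4% and 2.01% of all genes.

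Small nucleolar and Cajal body RNAs, guides for the modification of ribosomal and spliceosomal RNA, fell in 31 of 78 (against 0.559% of all genes) and rose in none. Their median change was -0.97, and for 76 of the 78 both cultured arrays lay below both controls (against 22.5% of all genes). In anti-CD3-CD28 Treg the median was -2.09 against the same control arrays, and 70 fell, where 1.97% of all genes fell. Most small nucleolar RNAs lie in introns of host genes, and 5 of 23 measured hosts fell. Snhg17, a noncoding host, read 11.80 and 11.23 in control Treg and 9.04 and 9.44 in OX40L-JAG1 Treg, a stable fall (-2.27 ± 0.27), with changes of -2.43 and -0.74 in its other rows. Rabggtb (-2.12), Rps20 (-2.05), Ptcd3 (-1.83) and Nop56 (-1.75) fell as well. The other row of Rps20 changed by -0.56, of Ptcd3 by -0.32 and of Nop56 by -0.74, so that the size of these falls depends on the row. Small RNAs were looked up only inside named genes with a negative change, and other hosts were not looked at. Within this limit a small RNA and the gene that holds it could be set side by side in 7 cases. Of the 7 small RNAs 2 passed. These were Snord19 (-2.10, adjusted p = 0.0123), inside Gnl3 (-0.71), and Snora74a (-2.20, 0.0014), inside Snhg4 (-0.71). Inside Nop56 (-1.75) the order was the reverse, with Snord110 at -0.46 (0.386). In the other cases the values were -0.78 for Snord69 (Gnl3 -0.71), -0.92 for Snord70 and -0.94 for Snord11 (Nop58 -0.92), and -0.46 for Snord58b (Rpl17 -0.87). No difference between a small RNA and its host was tested. Ribosome biogenesis genes had 2 falls among 29, Nop56 and Ppan (other row -0.47), and cytosolic ribosomal proteins 1 among 36, Rps20.

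The largest rises were of genes that mark cells other than T cells. In these bulk samples a change in the number of cells of a type and a change in RNA per cell cannot be told apart. S100a8, which encodes a subunit of the neutrophil protein calprotectin, read 3.38 and 3.59 in control Treg, 9.66 and 9.84 in OX40L-JAG1 Treg and 3.89 and 3.34 in anti-CD3-CD28 Treg. The rise (6.26 ± 0.37, adjusted p = 2.93e-05) was seen in the ligand culture, and the cultures differed by -6.13 ± 0.37 (anti-CD3-CD28 minus OX40L-JAG1, adjusted p = 7.45e-06). Of 26 neutrophil markers 8 rose (S100a8, Chil3, S100a9, Ngp, Lcn2, Ltf, Clec4e and Mmp8) and none fell, against 0.996% and 0.559% of all genes. Granule genes such as Ngp (4.66 and 4.34, then 7.83 and 8.21) and Lcn2 (4.18 and 4.94, then 7.41 and 7.82) were among them. The surface markers Ly6g (4.46 and 4.44, then 3.87 and 5.51) and Csf3r (4.78 and 4.86, then 5.09 and 4.99) stayed near the array medians (adjusted p = 0.975 and 0.827). Summed over the list, the log2 neutrophil marker level was 9.02 to 9.08 in control Treg, 11.23 to 11.48 in OX40L-JAG1 Treg, 9.24 to 9.36 in anti-CD3-CD28 Treg and 12.43 to 13.58 in OX40L-JAG1 Teff.

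Basophil and mast cell markers rose in 8 of 20, against 0.996% of all genes. The basophil protease Mcpt8 read 3.65 and 3.46 in control Treg, 8.21 and 8.36 in OX40L-JAG1 Treg and 3.57 and 3.24 in anti-CD3-CD28 Treg, a rise of 4.73 ± 0.28 (adjusted p = 2.93e-05). Cpa3, a mast cell and basophil carboxypeptidase, read 3.60 and 4.25, then 7.84 and 8.37. Kit, the stem cell factor receptor, read 4.99 and 4.59, then 7.32 and 6.48. These genes came up together with Csf2rb2, Hdc, Prss34, Gata1 and Cyp11a1, while the IgE receptor genes Fcer1a (2.34 and 1.86, then 2.79 and 3.29) and Ms4a2 (4.48 and 4.41, then 4.62 and 4.70) stayed low (adjusted p = 0.833 and 0.944). The summed level was 8.77 to 8.78 in control Treg, 10.36 to 10.47 in OX40L-JAG1 Treg and 10.29 to 10.41 in anti-CD3-CD28 Treg, where Cyp11a1 stood at 9.48 and 9.65. The other row of Cyp11a1 differed by 0.18 between OX40L-JAG1 and control Treg.

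Monocyte and macrophage markers rose in 5 of 27 (Lyz2, Fcer1g, Mpeg1, Spi1 and Itgam), against 0.996% of all genes. Lyz2, the lysozyme of myeloid cells, read 4.12 and 4.86, then 8.80 and 8.97, whereas Cd14 (3.60 and 4.0, then 4.01 and 4.39) and Csf1r (4.22 and 3.77, then 4.62 and 4.91) did not pass (adjusted p = 0.703 and 0.142). Their summed level was 10.99 to 11.21 in control and 11.7 to 11.75 in OX40L-JAG1 Treg. Platelet and megakaryocyte markers rose in 4 of 15, against 0.996% of all genes. Among them were the chemokine genes Ppbp (4.26 and 4.03, then 8.14 and 8.47) and Pf4 (3.53 and 3.39, then 6.35 and 6.74). Pf4 was not called after quantile normalization, and Itga2b (5.02 and 5.54, then 5.71 and 5.64) did not pass (adjusted p = 0.594). In anti-CD3-CD28 Treg the summed platelet level was higher still (11.02 to 11.08, against 10.43 in both OX40L-JAG1 arrays and 8.96 to 9.09 in control). The list median went the other way (anti-CD3-CD28 minus OX40L-JAG1: -0.28). In the test between the cultures 2 of the 15 were higher, against 4.73% of all genes, and none lower.

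Antigen presentation genes were part of the same set of rises. H2-Ab1, an MHC class II beta chain, read 4.85 and 4.65 in control Treg and 8.33 and 8.61 in OX40L-JAG1 Treg, and its partner H2-Aa read 4.67 and 4.81, then 7.49 and 7.71. In anti-CD3-CD28 Treg the pair parted, with H2-Ab1 at 8.94 and 9.02 and H2-Aa at 4.75 and 4.52. Of 11 MHC class II pathway genes 3 rose, these and H2-DMb2 (3.15 and 3.60, then 5.54 and 5.66). Of 17 dendritic cell markers 4 rose, and of all genes 0.996%. The summed MHC class II level was 11.0 to 11.09 in control Treg and 11.63 to 11.82 in OX40L-JAG1 Treg. The 4 were the chemokine genes Ccl22 (4.08 and 3.91, then 6.25 and 6.33) and Ccl17 (4.08 and 4.36, then 6.43 and 6.93) and the costimulatory ligand genes Cd86 (5.92 and 5.90, then 7.29 and 7.55) and Cd80 (6.44 and 6.56, then 7.47 and 7.43). Cd80 and Ccl17 were not called after quantile normalization. The summed dendritic cell level did not rise (12.05 to 12.13 in control, 11.26 to 11.94 in OX40L-JAG1 Treg) and was led by Cd209a, at 11.77 and 11.74 in control Treg. None of 16 B cell markers, 7 eosinophil, 8 erythroid, 10 plasma cell or 15 stromal and endothelial markers passed in limma (unadjusted p under 0.05: 1, 3, 1, 1 and 0 rose, and 0, 1, 0, 1 and 0 fell). Some of their summed levels nevertheless lay apart, at 11.69 to 11.76 in control and 12.21 to 12.36 in OX40L-JAG1 Treg for plasma cells, 6.77 to 6.84 and 7.32 to 7.65 for eosinophils, and 8.32 to 8.36 and 8.56 to 8.71 for erythroid cells. The median change of the plasma cell list was -0.05. Among its genes Ighm differed by 0.70 (its next brightest row by -0.49) and Jchain by -0.84. The B cell genes Cd79a and Ms4a1 had adjusted p of 0.627 and 0.74. Of 15 CD8 T and NK cell markers 1 fell, Nkg7 (-1.36 ± 0.27, adjusted p = 0.0292). What part other cells had in the rises, and in the rest of the comparison, was not tested.

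**Figure D4:**
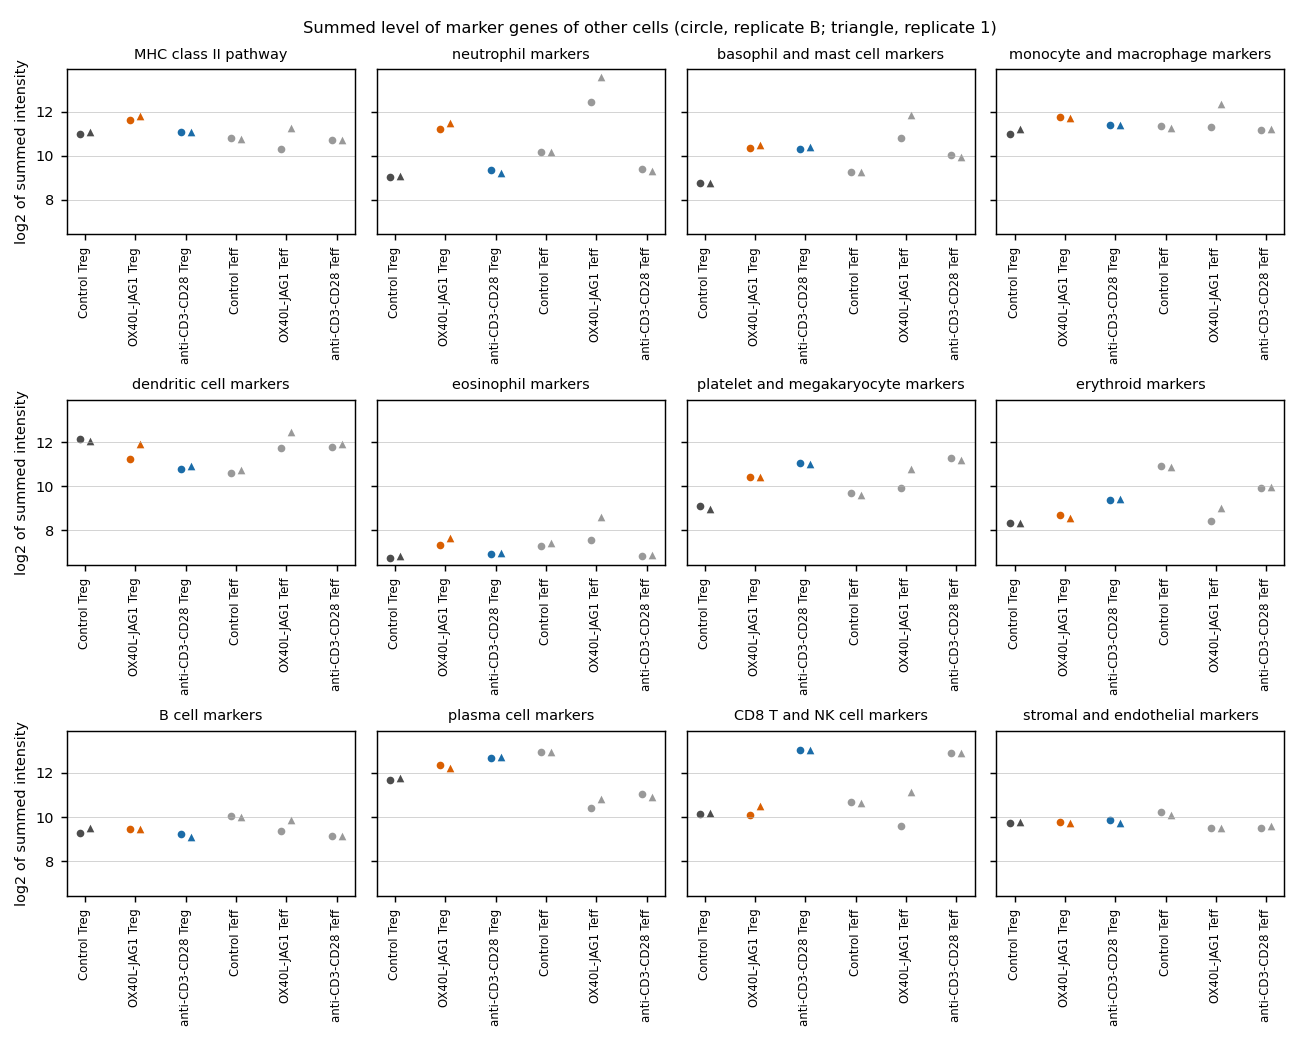
Log2 of the summed linear intensity of the measured marker genes of other cells on each array, by group. Neutrophil markers sit between 11.23 and 11.48 in OX40L-JAG1 Treg against 9.02 to 9.08 in control Treg, and basophil and mast cell markers between 10.36 and 10.47 against 8.77 to 8.78, while plasma cell, eosinophil and erythroid markers lie higher by less. B cell markers (9.29 to 9.5 against 9.45 to 9.46) and CD8 T and NK cell markers overlap between these groups.

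Further genes among the 20 largest rises were Lilrb4a, an inhibitory immunoglobulin-like receptor (7.83 and 8.32 in control Treg, 11.35 and 11.67 in OX40L-JAG1 Treg, 11.33 and 11.21 in anti-CD3-CD28 Treg), Anxa1 (annexin A1), Ly6i, Ifitm3 (an interferon-induced membrane protein), Tgfbi and Mmp12 (macrophage elastase). Ranked by size, the 20 rises ran from 6.26 (S100a8) to 2.64 (Mmp12), with adjusted p from 2.93e-05 to 0.0336. For 16 of the 20 the mean of 1 group, the control, lay below the lowest array median, so that their starting level is poorly resolved. Lilrb4a stood clear of that level in all 6 Treg arrays and the difference between the cultures did not pass (anti-CD3-CD28 minus OX40L-JAG1: -0.24 ± 0.32, adjusted p = 0.844).

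Among the 20 largest falls, Gsta4, a glutathione transferase that clears lipid peroxidation products, read 8.76 and 8.71 in control Treg, 5.94 and 6.17 in OX40L-JAG1 Treg and 5.51 and 5.48 in anti-CD3-CD28 Treg (-2.68 ± 0.18 against control, adjusted p = 4.84e-05). Adam19, a membrane metalloprotease, read 7.62 and 7.49, then 6.08 and 5.43 (-1.80 ± 0.22, 0.00199). Rgs16, a regulator of G protein signalling, read 8.01 and 7.80, then 6.41 and 6.06 (-1.67 ± 0.19, 0.00131). All 3 were stable. Actg2 (-1.78), Sh3gl3 (-1.77) and Gucy1a1 (-1.70) fell as well. For 5 of the 20 falls a group mean lay below the lowest array median, and adjusted p ran from 4.59e-05 to 0.0199.

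**Figure D5:**
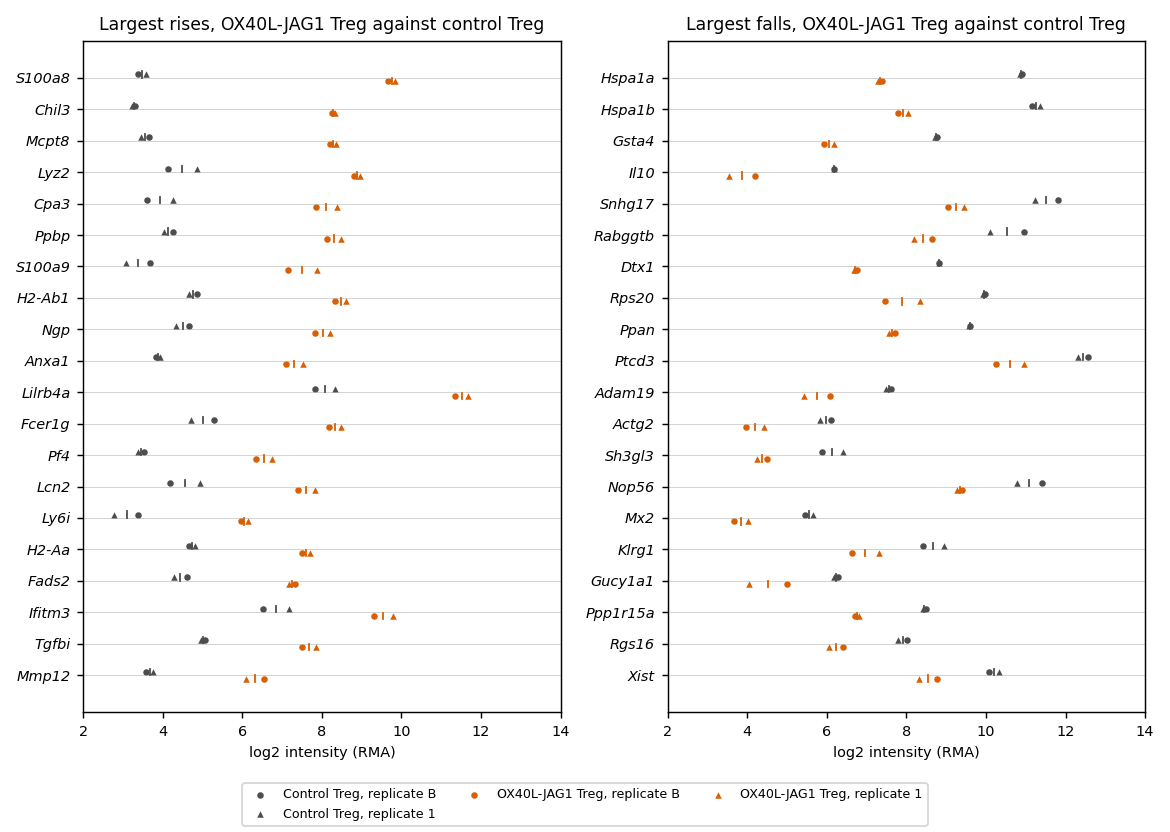
Log2 intensity of the 20 largest rises (left) and 20 largest falls (right) on the 2 control Treg and 2 OX40L-JAG1 Treg arrays, with vertical bars for group means. The groups do not overlap for any gene shown, as the rule for naming them required, and most of the rises start near the bottom of the scale (S100a8 at 3.38 and 3.59).

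Sex-linked genes also differed between the groups. Xist, the noncoding RNA of the inactive X chromosome, read 10.08 and 10.32 in control Treg, 8.77 and 8.31 in OX40L-JAG1 Treg and 11.16 and 11.11 in anti-CD3-CD28 Treg. The Y-linked gene Eif2s3y read 6.75 and 7.07, then 8.78 and 8.85, and 3.68 and 3.78 (OX40L-JAG1 minus control 1.91 ± 0.36, adjusted p = 0.0243). Kdm5d (1.40 ± 0.34, 0.0786) and Uty (1.33 ± 0.40, 0.185) did not pass. Xist and Eif2s3y were both well above the lowest array median in the control and OX40L-JAG1 arrays, and Eif2s3y was below it in anti-CD3-CD28 Treg. The sex of the mice is not given in the labels, and the part of these differences in the comparison was not tested.

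The direct test between the cultures shares the OX40L-JAG1 Treg arrays with the comparison above. It gave 1050 genes higher in anti-CD3-CD28 Treg (4.73%) and 261 lower (1.18%), 1311 (5.91%) in all, and 3082 (13.9%) in the 10-array fit, 2193 of them higher (9.89%) and 889 lower (4.01%). After quantile normalization 66.2% of the calls were higher in anti-CD3-CD28 Treg, against 80.1%. Set against the control arrays, which both comparisons share, anti-CD3-CD28 Treg had 1792 rises (8.08%) and 438 falls (1.97%), 2230 (10.1%) in all. After quantile normalization 65.8% of these were rises, against 80.4%. Several genes called in OX40L-JAG1 against control Treg stood apart from the antibody culture. Higher in OX40L-JAG1 Treg were Itgae, Nfkb2, Il7r (anti-CD3-CD28 minus OX40L-JAG1: -0.88 ± 0.19, adjusted p = 0.0192) and Cd86 (-1.04 ± 0.19, 0.00697). Lower there were Il10 (3.60 ± 0.25, adjusted p = 1.66e-05), Ccr8 (2.93 ± 0.19, 1.28e-05), Tigit (2.74 ± 0.29, 0.000222), Lag3 (2.58 ± 0.19, 2.5e-05), Maf (2.48 ± 0.18, 2.2e-05), Ccr4 (2.43 ± 0.25, 0.000163) and Mx2 (2.38 ± 0.26, 0.00024). Both arrays of OX40L-JAG1 Treg lay below, and both of anti-CD3-CD28 Treg above, both control arrays for each of these 7 genes. Of the receptors, Tnfrsf9 (2.25 ± 0.18, adjusted p = 4.98e-05), Tnfrsf4 (1.02 ± 0.25, 0.0362) and Notch1 (0.79 ± 0.19, 0.0282) were higher with anti-CD3-CD28, while Foxp3 (0.34 ± 0.21, 0.526) did not pass.

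For Treg and Teff cells alike, culture and ligands change together against fresh cells. Whether that change differed between Treg and Teff cells was tested as an interaction. It was called for 6996 genes (31.5%), 4725 of them in the positive direction (21.3%) and 2271 in the negative (10.2%), and rests on the OX40L-JAG1 Teff arrays that stood apart. The share of positive calls was 67.5%, against 85.4% with a common array median (5631 and 961) and 61.8% after quantile normalization (1477 and 914), and the median interaction over all genes was -0.17. Nfkb2 differed by 1.36 in Treg and by -0.64 in Teff cells (interaction 2.00, adjusted p = 0.000392), Itgae by 1.92 and 0.67 (1.25, 0.00438) and Il10 by -2.31 and 0.20 (-2.51, 0.000634). The marker genes of other cells were split. For S100a8 (interaction 0.02, adjusted p = 0.975) and Mcpt8 (-0.76, 0.162) no difference was detected, with OX40L-JAG1 Teff at 10.77 and 12.03 for S100a8 against 5.18 and 5.14 in control Teff. H2-Ab1 rose more in Treg cells (2.92, adjusted p = 0.00128), and control Teff stood at 7.56 and 7.53. For Dtx1 no difference was detected (0.60, adjusted p = 0.119), and Teff cells read 9.41 and 9.59 fresh and 6.57 and 7.01 after culture with the ligands.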

How the data were processed

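RNA of 12 samples was hybridised to Affymetrix Mouse Gene 2.0 ST arrays, 2 in each of 6 groups. The deposited values are log2 intensities that the authors had normalized with RMA, per the submitters' processing notes. Of 41345 rows, 23521 carried 1 gene symbol. They were updated through Entrez identifiers to the GRCm38.p6 RefSeq table (23328 rows matched), and each of the 22180 genes was represented by its brightest row on average. Among these, 1082 genes had several rows.

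Differences were fitted with limma 3.58.1 in R 4.3.3, with 1 mean per group over all 12 arrays, and p-values were two-sided and adjusted by the Benjamini-Hochberg method within each comparison at 0.05. The script was tested on simulated data. Same-numbered replicates did not deviate together (correlation of deviations -0.0693 to 0.182), so samples were not paired. Genes named were the 20 largest rises and 20 largest falls that passed with groups apart, up to 8 members of each list, every called member of the OX40, NF-kappaB and Notch lists, the 5 largest interactions in each direction and a few fixed genes. Predicted genes, small RNA families and receptor segments were left out of the largest changes. Genes outside the rule (Cd14, Cd3e, Cish, Csf1r, Csf3r, Ctla4, Eif2s3y, Fcer1a, Hes1, Hspa8, Ikzf2, Itga2b, Jun, Junb, Kdm5d, Ly6g, Ms4a2, Pfkl, Pkm, Relb, Slc16a3, Snora74a, Snord11, Snord110, Snord19, Snord58b, Snord69, Snord70, Tnfrsf9 and Uty) were chosen after their values were seen. The members and lists were chosen with earlier results of these data known. The heat shock motif was shortened after a longer form had been looked at.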

Additional observations from a re-analysis of the deposited data

Results flagged for a closer look

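The change from fresh cells to culture with OX40L and JAG1 differed between Treg and Teff cells for 6996 genes in the limma interaction test. The result rests on the OX40L-JAG1 Teff arrays, whose correlation of 0.881 stood apart from that of the other groups. Their standard deviation over genes was 1.49 and 1.71, against 1.95 to 2.19 on the other arrays, and their medians were 5.17 and 5.12, against 4.87 to 5.06. After quantile normalization the count was 2391. What part these traits of the arrays had in the interactions was not tested. In the positive direction, Car2, which encodes a carbonic anhydrase, differed by 1.23 in Treg and by -3.10 in Teff cells (OX40L-JAG1 minus control), an interaction of 4.34. For Car1, of the same family, the interaction was 3.83 (-0.24 and -4.07). It was 3.76 for the interferon-inducible gene Ifi208 (0.00 and -3.76). Kit rose in Treg cells and was lower in Teff cells (2.11 and -1.40, interaction 3.51). Zfp942, a zinc finger gene, gave 3.37 (0.54 and -2.82).

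In the negative direction, several of the genes host or neighbour small nucleolar RNAs. Rps20 differed by -2.05 in Treg and 2.96 in Teff cells (interaction -5.01), Rabggtb by -2.12 and 2.72 (-4.84) and Snhg17 by -2.27 and 1.99 (-4.26). Med24, a Mediator subunit gene, differed by -2.06 and 2.91 (-4.97), although its other row differed by 0.04 in Treg cells. The Y RNA gene Rny3 differed by -0.75 and 3.92 (-4.67). Adjusted p of these 10 genes ran from 6.22e-05 to 0.00212.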

How the results depend on the processing

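A group left with 1 array adds nothing to the estimate of the spread. For comparisons among Treg groups, leaving out 1 OX40L-JAG1 Teff array is therefore the same fit as leaving out both. The count of genes called in OX40L-JAG1 against control Treg was 345. It was 1200 without the OX40L-JAG1 Teff arrays, 1016 with the 6 Treg arrays only, 771 with the 4 arrays of the groups compared and 1010 with array weights. With 1 array left out it ran from 99, without OX40L-JAG1 Treg replicate B, to 1200, without either OX40L-JAG1 Teff array. It was 105 without Control Treg replicate B, 130 without Control Treg replicate 1 and 130 without OX40L-JAG1 Treg replicate 1. Between the cultures the count of 1311 became 3082, 2786, 2771 and 3435 under the same 4 alternatives and ran from 595 to 3082 with 1 array left out. For anti-CD3-CD28 against control Treg, 2230 became 4770, 4520, 4705 and 5450 and ran from 1054 to 4770. The interaction count of 6996 was 2391 after quantile normalization and ran from 4142 to 12172. With the replicate number as a block the counts were 306, 1258, 2124 and 6896; the numbers are not shown to pair the samples. Of the 340 named genes, 21 turned direction under some setting, none of them called and none with a change over 0.38; Notch3 was among them. The authors' values carry no background measure, so genes under the lowest array median of 4.87 are poorly resolved.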
